A study of Mus musculus with 11 samples.

Results

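Immediate early and dissociation response genes were followed across astrocytes of 4 brain regions. The set holds 10 genes chosen by name, Fos, Fosb, Jun, Junb, Egr1, Atf3, Ier2, Nr4a1, Dusp1 and Socs3, out of 24417 genes read from the deposited data. All 10 passed the filter on low values, which kept 13872 genes for testing. The astrocytes came from 16-week-old C57BL/6 mice of both sexes that carry a bacterial artificial chromosome in which Aldh1l1 regulatory sequence drives eGFP, and every group shares this transgene. No group was treated. The regions were the brainstem (BS), the cortex (CX), the hippocampus (HC) and the olfactory bulb (OB). After dissection and dissociation, eGFP+ cells were sorted by FACS, and total RNA was sequenced from 3 OB, 3 HC, 2 CX and 3 BS samples. The labels do not say whether replicates of a region are separate animals, so the p-values given here measure only the spread between these samples. Samples are named by region and replicate number, as in OB_1.

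Immediate early genes are transcribed within minutes of a stimulus from factors already present in the cell, with no need for new protein synthesis. Growth factors, calcium entry and stress reach them through kinases that act on serum response factor with its partners and on Creb. Preparing living cells from brain tissue is itself such a stimulus, and enzymatic dissociation is known to raise this class of transcripts in sorted cells. The 4 AP-1 genes, Fos, Fosb, Jun and Junb, encode leucine zipper proteins that bind DNA as pairs. Atf3 is a stress-induced member of the same superfamily, Egr1 and Nr4a1 encode a zinc finger factor and an orphan nuclear receptor, and Ier2 encodes a small nuclear protein. Dusp1, a phosphatase of MAP kinases, and Socs3, an inhibitor of cytokine receptor signalling through Stat3, act as negative feedback.

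The deposited value of a gene is its read count divided by 1 size factor per sample. Samples held between 2830746 and 14151670 reads on genes, with a median of 5552215, and 1 read was worth between 0.367 (HC_3) and 2.10 (BS_3). A count of 3 reads was taken as the floor of detection, at values between 1.10 and 6.31. Intervals and floors cover counting error only. The sum of 10 astrocyte markers lay between 248200 and 298664 in OB, 285361 and 482195 in HC, 584989 and 662322 in CX, and 122346 and 331092 in BS, and no astrocyte marker was at 0 in any sample. Markers of microglia, with sums of 1611 to 5529, and of endothelial cells, with sums of 396 to 3637, were detected in every sample as well. Sums of oligodendrocyte markers were larger, from 9312 in OB_3 to 90048 in BS_3. Those of choroid plexus markers ran from 2503 in OB_2 to 363314 in BS_1, where the astrocyte sum was 122346. In such bulk samples, fewer cells of a type and less RNA per cell cannot be told apart.

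The 10 genes varied more between replicates of a region than between regions. A median of 21.5% of their variance lay between regions, against 43.9% over all genes tested. This share is not corrected for the part that replicate spread alone adds to it. None of the 10 differed among the 4 regions (limma F test, adjusted p under 0.05), against 16.5% of all genes tested, and 1, Socs3, had an unadjusted p under 0.05, against 28.7% of all genes. With edgeR and with DESeq2 on the recovered reads the count was also 0 at an adjusted p under 0.05. These tools called 14.9% and 22.1% of all genes by that rule. At an unadjusted p under 0.05 the count was 0 in both as well, where 27.4% and 30.7% of all genes passed. HC_1 exceeded HC_3 by between 3.69-fold (Jun) and 272-fold (Atf3) for the 9 genes detected in HC_3. All 10 genes were highest in HC_1 and lowest in HC_3 among HC samples, and all 10 were also lowest in OB_3 among OB samples and in BS_2 among BS samples.

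Fos, the founding AP-1 subunit (chr12:85473890-85477274 of GRCm38.p6), had values of 811, 861 and 450 in OB, 1191, 293 and 44.0 in HC, 172 and 228 in CX, and 712, 144 and 463 in BS. Both CX samples lay below all OB samples, whereas the HC samples took in the highest and the lowest of the 11. The region means were 707 ± 225 (SD, n = 3) in OB, 509 ± 603 (SD, n = 3) in HC, 200 ± 39.8 (SD, n = 2) in CX and 440 ± 284 (SD, n = 3) in BS. Fosb (chr7:19302696-19310118), its close relative, had values of 475, 261 and 132 in OB, 451, 115 and 3.67 in HC, 69.1 and 135 in CX, and 346, 24.0 and 219 in BS. HC_1 exceeded HC_3 by 123-fold, and every pair of regions overlapped. The Fosb value of HC_3 rested on 10 reads, with a 95% Poisson interval of 1.76 to 6.75, far below the other HC samples.

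Jun (chr4:95049036-95052222), the partner with which Fos proteins pair, varied least of the 10. It had values of 785, 628 and 389 in OB, 587, 347 and 159 in HC, 308 and 408 in CX, and 674, 288 and 415 in BS. All regions overlapped, and HC_1 exceeded HC_3 by 3.69-fold. Junb (chr8:84976909-84978748) had values of 98.8, 143 and 46.3 in OB, 188, 57.5 and 6.24 in HC, 33.9 and 61.3 in CX, and 87.3, 22.0 and 69.5 in BS. Again all regions overlapped, and the ratio of HC_1 to HC_3 was 30.1. In the limma F test, Fos had an adjusted p of 0.461, Fosb of 0.655, Jun of 0.437 and Junb of 0.805.

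Atf3 (chr1:191170296-191183333) spanned the widest range. Its values were 82.5, 83.7 and 28.5 in OB, 399, 30.1 and 1.47 in HC, 41.5 and 30.7 in CX, and 157, 14.0 and 183 in BS. HC_1 stood at 272 times HC_3, with 638 reads against 4, and the HC samples enclosed those of every other region. The 95% Poisson interval of HC_3 was 0.40 to 3.76, whose upper bound lay below the other HC samples. The share of Atf3 variance between regions was 7.6%, the smallest of the 10 (adjusted p = 0.869, limma F test).

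Egr1, the gene with the highest level per kilobase, had values of 1388, 1211 and 706 in OB, 1880, 535 and 72.3 in HC, 352 and 445 in CX, and 2550, 220 and 1040 in BS. Both CX samples lay below all OB samples, and BS_1 exceeded BS_2 by 11.6-fold. Its means of 1102 ± 354 (SD, n = 3) in OB and 1270 ± 1182 (SD, n = 3) in BS differed by less than the spread within BS. Nr4a1 (chr15:101253902-101274795) had values of 169, 141 and 87.8 in OB, 401, 33.8 and 9.54 in HC, 74.1 and 82.8 in CX, and 129, 54.1 and 98.9 in BS. Both CX samples lay just below the lowest OB sample, and HC_1 stood alone above all other samples. Ier2 (chr8:84661331-84662852) was low throughout, with values of 61.9, 49.7 and 14.5 in OB, 46.8, 39.3 and 4.04 in HC, 5.03 and 7.67 in CX, and 25.2, 10.02 and 33.7 in BS. The CX samples lay below all OB and BS samples but above HC_3. They rested on 4 and 5 reads, with 95% Poisson intervals of 1.37 to 12.9 and 2.49 to 17.9. BS_2, the lowest BS sample, rested on 5 reads, and its interval of 3.25 to 23.4 overlapped both.

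Of the feedback genes, Dusp1 (chr17:26505591-26508472) had values of 443, 310 and 195 in OB, 761, 133 and 82.6 in HC, 155 and 351 in CX, and 1206, 242 and 509 in BS. All regions overlapped, and unlike most of the set its mean on the log2 scale was highest in BS, as was that of Atf3. Socs3 (chr11:117966079-117970336) had values of 41.3, 29.2 and 19.9 in OB, 75.6, 9.13 and 0 in HC, 0 and 3.07 in CX, and 34.7, 8.01 and 54.7 in BS. It was the rarest of the 10, and both CX samples lay below all OB and BS samples. The CX values rested on 0 and 2 reads. The 95% Poisson interval of a count of 0 reached 4.63 in CX_1 and 1.35 in HC_3. BS_2, the lowest BS sample, rested on 4 reads, with an interval of 2.18 to 20.5. By limma, Socs3 came nearest to a difference among regions, with a p of 0.0450 and an adjusted p of 0.162 in the limma F test. DESeq2 gave it an adjusted p of 0.514 and edgeR one of 0.381, and in both Ier2 came nearest, with adjusted p-values of 0.222 and 0.293.

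**Figure D1:**
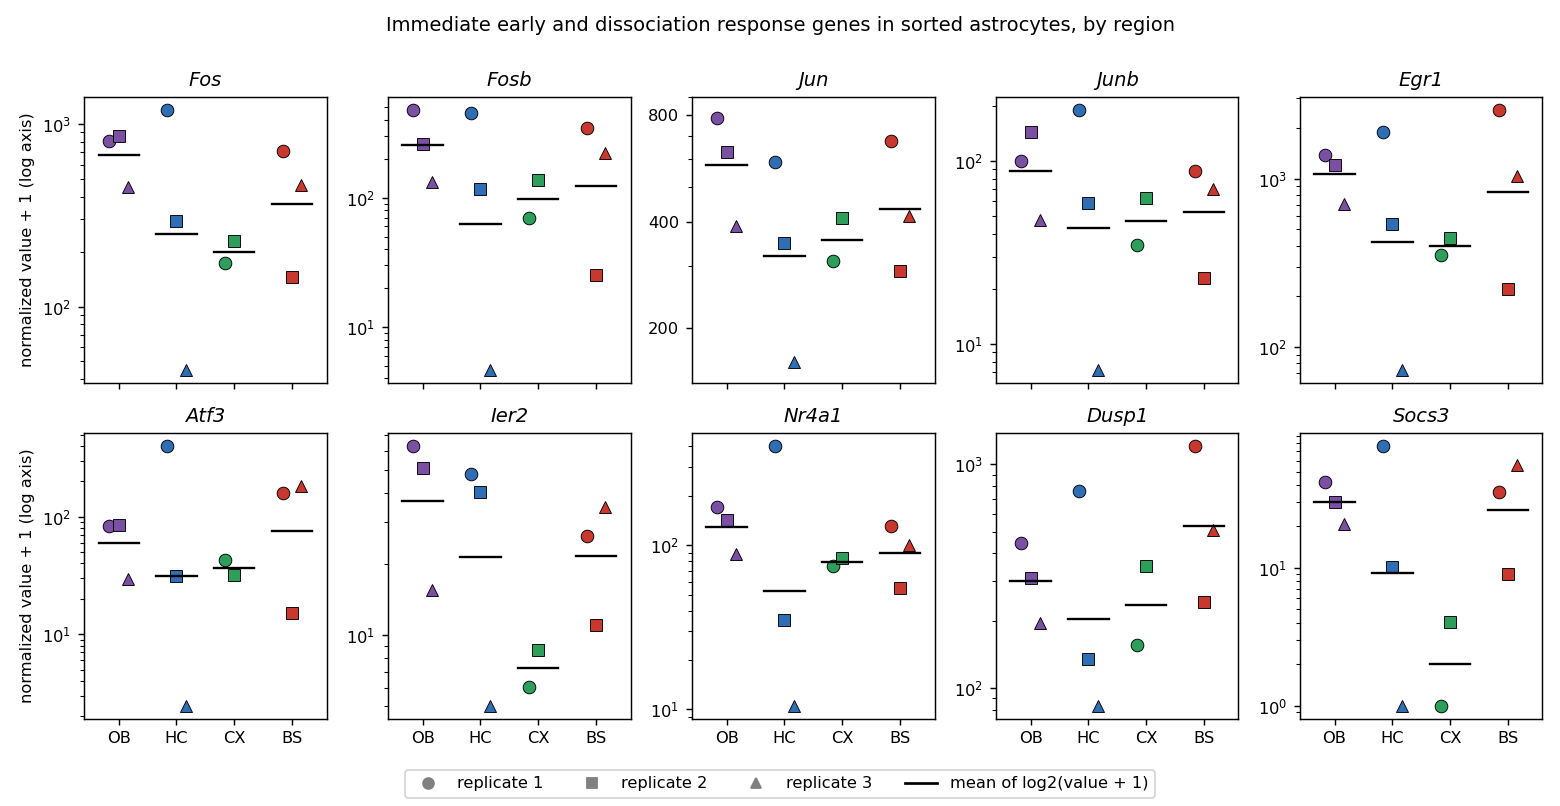
Normalized value + 1 on a log axis of each gene in the 11 samples, by region (OB, HC, CX, BS), with 1 point per sample, its shape giving the replicate number and black lines the mean of log2(value + 1). In all 10 panels replicate 1 is the highest and replicate 3 the lowest of the HC samples, and replicate 2 is the lowest of the BS samples.

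Divided by exon length, so that levels can be compared between genes, the median over the 11 samples was 233 per kilobase for Egr1, 213 for Fos, 156 for Dusp1 and 128 for Jun. It was 35.7 for Fosb, 35.4 for Nr4a1, 33.9 for Junb, 20.9 for Atf3, 16.6 for Ier2 and 7.81 for Socs3. Of neighbours in this order, Jun and Fosb were the farthest apart. Egr1 and Fos were closer than the spread between replicates, since Egr1 had 363 ± 117 (SD, n = 3) per kilobase in OB, where Fos had 336 ± 107 (SD, n = 3).

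To ask whether any region stood apart, each was compared with the samples of the other 3 regions pooled, by limma on log2(value + 1). The thresholds for a call followed the study's methods, with p below 0.01, taken here before adjustment, more than 1.5-fold change, and 2 or more replicates of some region above a value of 5. The study names that value in RPM, whereas it was set here on the deposited size-factor scale, and no gene was required to change in 1 region alone. None of the 10 genes was called in OB, HC, CX or BS, where the same rule called 8.04%, 1.28%, 2.77% and 9.03% of all genes. At an unadjusted p under 0.05 there were 0, 0, 2 and 0 of the 10, where 17.6%, 5.69%, 9.90% and 21.3% of all genes passed. On the recovered reads edgeR called 0 of the 10 in each region, against 8.20%, 1.36%, 2.13% and 8.11% of all genes. DESeq2 called 10.7%, 2.99%, 4.25% and 10.3% of all genes, and 1 of the 10, Socs3 in CX, with a log2 fold change of -4.37 (DESeq2 adjusted p = 0.151).

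In OB, 9 of the 10 genes had a positive log2 difference from the other regions, with a median of 0.94 against 0.02 over all genes tested. Socs3 had the largest, 1.68 with a standard error of 1.24, and Dusp1 the single negative one, -0.01. Fos had a difference of 1.32 with a 95% interval of -0.23 to 2.88 (limma adjusted p = 0.382), and Jun one of 0.65 with an interval of -0.11 to 1.41 (limma adjusted p = 0.379). In CX, all 10 had a negative difference, with a median of -0.48 against -0.03 over all genes. The differences of Ier2, -1.83 with an interval of -3.60 to -0.05, and of Socs3, -3.26 with an interval of -6.01 to -0.51, were the pair at an unadjusted p under 0.05 (limma adjusted p = 0.487 and 0.409). In HC, 9 of the 10 were negative with a median of -0.72, and in BS 9 of the 10 were positive with a median of 0.12. None of these signs is a call, and the comparisons share samples.

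The 6 contrasts between single regions gave 60 tests of the 10 genes. None passed an adjusted p under 0.05, against 7.29% of all tests over genes and contrasts, and 3 had an unadjusted p under 0.05, against 19.1% of all tests. These were Socs3 in OB against CX, with a log2 difference of 3.89 ± 1.35 (SE, limma adjusted p = 0.134), Socs3 in CX against BS, at -3.70 ± 1.35 (limma adjusted p = 0.0987), and Ier2 in OB against CX, at 2.35 ± 0.93 (limma adjusted p = 0.201). edgeR and DESeq2 each passed 0 of the 60, with 5 at an unadjusted p under 0.05 in each, where 18.5% and 19.8% of all tests passed. The data did not show the regions to be alike either, since 51 of the 60 intervals of 95% reached beyond a 4-fold difference and all 60 beyond a 2-fold one. For Jun, the least variable, the OB to CX ratio had an interval of 0.833 to 3.17.

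Full separation of the samples of a pair of regions was set beside its frequency among all genes. The OB and CX samples were fully separated for 5 of the 10 genes, Fos, Egr1, Ier2, Nr4a1 and Socs3, all higher in OB, beside 37.6% of all genes tested in either direction. CX and BS were separated for Ier2 and Socs3, 2 of the 10, beside 38.2% of all genes. The lowest BS values, those of BS_2, rested on 5 reads of Ier2 and 4 of Socs3. Their 95% Poisson intervals overlapped those of both CX samples. No gene of the set was separated in the other 4 pairs of regions, where the shares of all genes were 25.7% for OB and HC, 30.1% for OB and BS, 30.8% for HC and CX and 18.0% for HC and BS.

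The spread between replicates was wide for these genes. On the log2(value + 1) scale, the SD around the region means had a median of 1.48 over the 10 genes and 0.451 over all genes tested. It was 2.29 for Atf3, 2.18 for Fosb, 1.92 for Socs3, 1.61 for Egr1, 1.49 for Nr4a1, 1.47 for Junb, 1.45 for Fos, 1.23 for Ier2, 1.18 for Dusp1 and 0.67 for Jun. Low genes vary more, so each SD was divided by that of the limma trend at the gene's level. This ratio was highest for Egr1, at 6.77, Fosb, at 5.87, and Fos, at 5.53, and its median over the 10 was 3.76 against 0.994 over all genes. Of the 10, 9 exceeded the 95th percentile of all genes, 1.85, which 5.00% of genes exceed by construction. Ier2 was the exception, with a ratio of 1.54. These are descriptions, since no test was made on the spread.

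**Figure D2:**
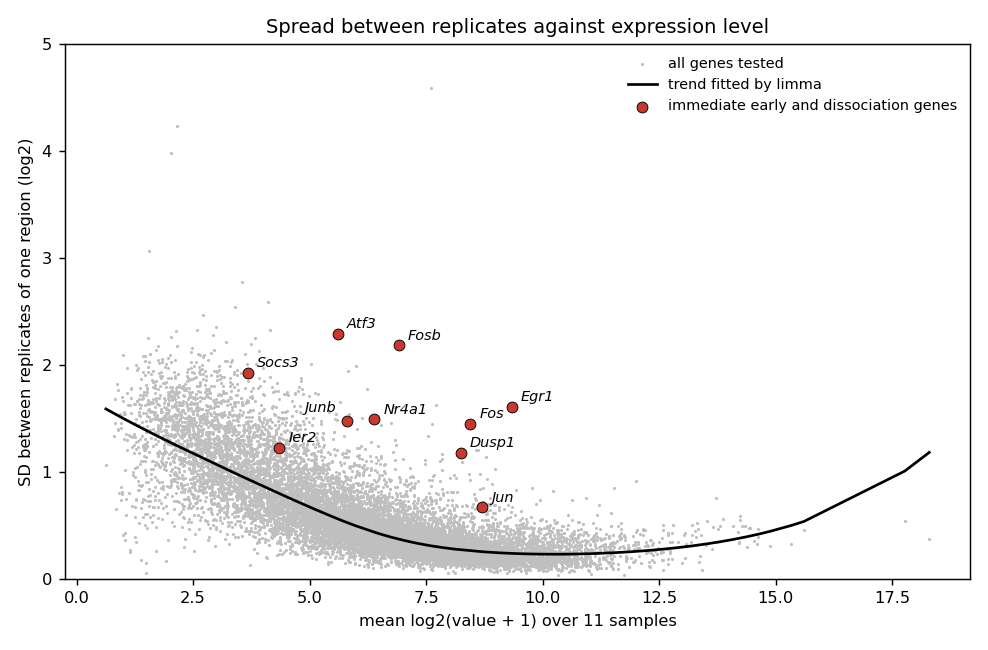
SD between replicates of a region (log2) against mean log2(value + 1) over 11 samples for the 13872 genes tested (grey), with the limma trend (line) and the 10 immediate early and dissociation genes (red). All red points but that of Ier2 lie far above the trend, and Ier2, with a ratio to the trend of 1.54, lies among other genes of its level.

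Regions held a small share of the variance of most of these genes. The share of the variance over 11 samples that lay between regions had a median of 21.5% over the 10 genes and 43.9% over all genes tested. It was 46.6% for Socs3 and 38.8% for Ier2, and no more than 27.9% for the other 8, with 24.6% for Fos, 18.5% for Egr1 and 16.1% for Fosb. Socs3 was the only gene of the set above the median of all genes. The low share was not particular to the set, since microglial and endothelial markers had medians of 23.0% and 21.6%. Astrocyte markers had one of 60.2%. None of these shares is corrected for the part that replicate spread alone adds, so a low share does not show a difference between regions.

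**Figure D3:**
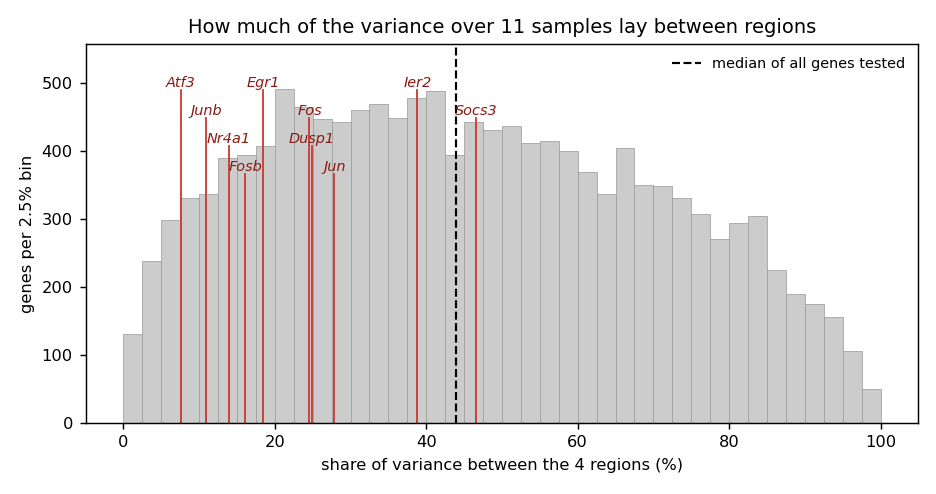
Number of genes per bin by the share of their variance over 11 samples that lay between the 4 regions (%), for all genes tested (grey bars, dashed line at their median of 43.9%), with red lines for the 10 genes. All but Socs3, at 46.6%, fall to the left of the dashed line.

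The samples that were high or low were the same for nearly all of the 10 genes. The mean deviation of the 10 from their overall means, in log2 units, was 1.18, 0.94 and -0.06 in OB_1, OB_2 and OB_3, 1.79, -0.32 and -3.00 in HC_1, HC_2 and HC_3, -1.05 and -0.41 in CX_1 and CX_2, and 1.21, -1.09 and 0.81 in BS_1, BS_2 and BS_3. HC_1 was thus the highest and HC_3 the lowest of all samples. The order of HC_1 above HC_2 above HC_3 held for all 10 genes, beside 18.7% of all genes tested. OB_3, HC_3 and BS_2 were each the lowest of their region for all 10, beside 7.10% of all genes. In OB the highest sample was OB_2 for Fos, Junb and Atf3 and OB_1 for the rest of the set. In BS it was BS_3 for Atf3, Ier2 and Socs3 and BS_1 for the rest, and in CX it was CX_2 for all but Atf3. These highest samples are given without a share of all genes and describe only the order within the set. Genes measured in the same libraries are not independent replicates of this order.

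HC_3, with the lowest levels, was the most deeply sequenced sample. It held 120 reads of Fos among its 14151670 reads, whereas HC_1 held 1907 reads of Fos among 7389472. OB_3 and CX_1, the lowest of their regions by mean deviation, were also the deepest there, with 9425474 and 5596128 reads. In BS the lowest sample, BS_2, was not the deepest. It held 3098215 reads, where BS_1 held 5552215 and BS_3 held 2830746. The part of depth in these levels was not tested. Each gene followed the mean of the other 9 over the 11 samples, with a Pearson r between 0.822 (Dusp1) and 0.981 (Fos), and Spearman rho between 0.755 and 0.964. Without HC_1 and HC_3 r lay between 0.682 and 0.95. Around the region means r lay between 0.888 and 0.994. The points share their library and size factor, and these correlations are given as a description.

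**Figure D4:**
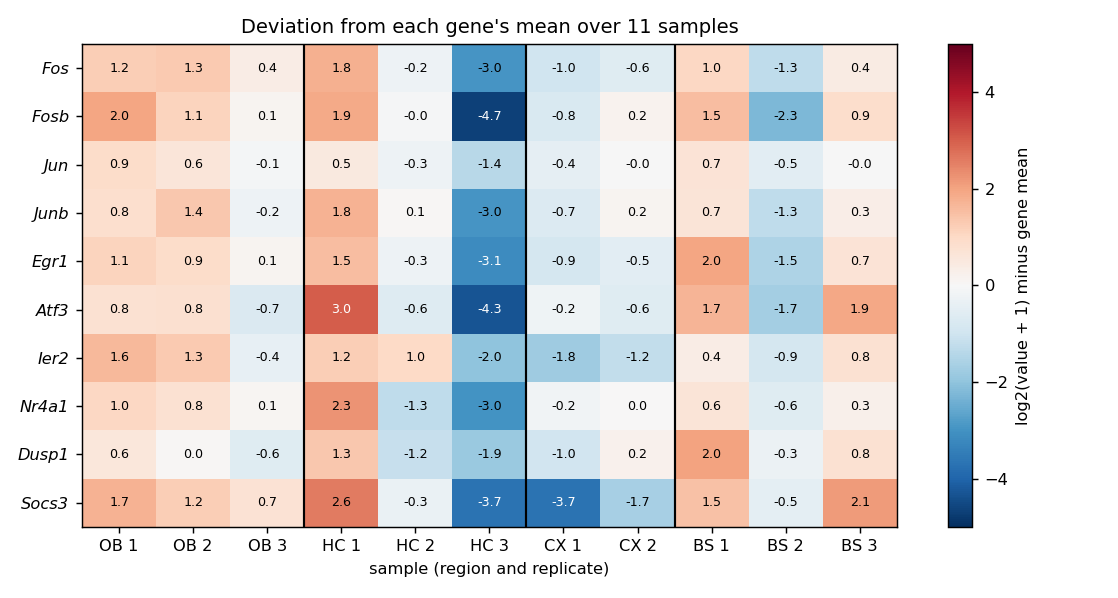
Deviation of log2(value + 1) from each gene's mean over 11 samples, with genes in rows, samples in columns and vertical lines between regions (red higher, blue lower). The column of HC 1 is red and that of HC 3 blue throughout, and the column of BS 2 is blue for all 10 genes.

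Since the genes moved together between samples, the sequences before their starts are shown. The RefSeq promoter table for GRCm38.p6 held 8 of the 10 genes, not Egr1 or Ier2. The 250 bases upstream of the start in that table are printed 5′ to 3′ on the gene's own strand for the 5 genes with the largest ratio of the replicate SD to the trend. Capitals mark matches on either strand to the cyclic AMP response element TGACGTCA or its half-site CGTCA, whose reverse complement is TGACG, and to TATAAA.
Fosb, chr7:19310046-19310295, minus strand: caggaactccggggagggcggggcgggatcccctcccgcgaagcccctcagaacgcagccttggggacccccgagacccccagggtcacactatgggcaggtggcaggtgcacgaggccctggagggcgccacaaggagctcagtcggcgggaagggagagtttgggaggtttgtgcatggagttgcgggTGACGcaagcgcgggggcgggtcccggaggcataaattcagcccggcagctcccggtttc
Fos, chr12:85473640-85473889, plus strand: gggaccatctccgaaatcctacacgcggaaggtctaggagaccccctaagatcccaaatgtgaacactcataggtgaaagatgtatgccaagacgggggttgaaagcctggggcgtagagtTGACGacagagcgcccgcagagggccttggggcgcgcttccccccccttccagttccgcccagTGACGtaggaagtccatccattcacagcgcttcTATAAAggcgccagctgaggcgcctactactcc
Dusp1, chr17:26508473-26508722, minus strand: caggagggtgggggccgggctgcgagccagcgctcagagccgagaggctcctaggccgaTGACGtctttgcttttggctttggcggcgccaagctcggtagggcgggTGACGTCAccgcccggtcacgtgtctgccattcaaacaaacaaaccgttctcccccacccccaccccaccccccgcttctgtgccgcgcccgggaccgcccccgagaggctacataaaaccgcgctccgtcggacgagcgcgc
Atf3, chr1:191183334-191183583, minus strand: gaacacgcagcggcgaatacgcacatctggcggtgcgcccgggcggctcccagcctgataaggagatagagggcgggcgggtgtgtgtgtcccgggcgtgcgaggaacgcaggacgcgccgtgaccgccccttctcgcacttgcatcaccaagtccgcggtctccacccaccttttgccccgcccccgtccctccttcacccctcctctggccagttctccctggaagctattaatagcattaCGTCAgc
Nr4a1, chr15:101266596-101266845, plus strand: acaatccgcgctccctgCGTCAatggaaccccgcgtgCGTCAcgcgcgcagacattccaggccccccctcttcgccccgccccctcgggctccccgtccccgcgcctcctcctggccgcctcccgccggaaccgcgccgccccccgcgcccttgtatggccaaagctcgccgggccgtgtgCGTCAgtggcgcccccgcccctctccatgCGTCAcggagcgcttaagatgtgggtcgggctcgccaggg

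The half-site CGTCA, the core bound by Creb, was in 6 of the 8 promoters, those of Fos, Fosb, Junb, Atf3, Nr4a1 and Dusp1, against 17.8% of the 32851 promoters in the table. Nr4a1 held 4 copies, at 233, 213, 69 and 40 bases before the start, and Fos held 2, at 129 and 66. Dusp1 held 3, of which 2 overlap as the full element TGACGTCA at 143 to 136 bases before the start. That element was in 1.55% of all promoters and in none of the other 7. Fos also held a TATAAA at 33 to 28 bases before the start, a motif in 12.4% of all promoters. The AP-1 site TGACTCA, in 4.46% of all promoters, and the CArG box of serum response factor, in 1.47%, had no match in the 8 windows. The Stat motif TTCNNNGAA, in 7.02% of all promoters, matched once, in Socs3, as TTCTTAGAA at 154 to 146 bases before the start. Such matches describe the letters of these windows and are not evidence of binding. Sites farther upstream than 250 bases, and those of Egr1 and Ier2, were not searched, so a missing match does not mean that a gene lacks the site. The start that the table uses for Fosb, Nr4a1 and Socs3 lies inside the gene span given above.

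Other immediate early genes were examined beside the 10. Of 47 listed, 43 were tested, and 6 differed among regions (limma F test, adjusted p under 0.05), namely Btg1, Trib1, Sgk1, Arc, Npas4 and Tiparp, where 16.5% of all genes differed. Trib1, a pseudokinase gene, was highest in OB, with a mean value of 540 ± 104 (SD, n = 3) there and 158 ± 49.5 (SD, n = 2) in CX (limma adjusted p = 0.00208). Npas4, an activity-dependent factor of neurons, had 49.7 ± 26.7 (SD, n = 3) in OB and was at 0 in all 3 BS samples (limma adjusted p = 0.0102). The floor of 3 reads stood at 3.15, 6.01 and 6.31 in these BS samples. Arc, a synaptic activity gene, had 144 ± 25.7 (SD, n = 2) in CX and 29.5 ± 12.7 (SD, n = 3) in BS (limma adjusted p = 0.00505). Btg1 was lowest in BS, at 52.1 ± 7.86 (SD, n = 3), and Sgk1, a glucocorticoid-induced kinase, was lowest in OB, at 54.1 ± 36.8 (SD, n = 3). By the rule for 1 region against the others, 3 of the 43 were higher in OB (Trib1, Npas4 and Dusp6), 1 was lower in OB (Sgk1) and 3 were lower in BS (Btg1, Arc and Tiparp), where 4.15%, 3.89% and 5.05% of all genes were called in these directions. Their replicate spread was wider than usual in part, with 14 of 43 above the 95th percentile of the ratio to the trend and a median ratio of 1.44.

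Among related groups, the 17 heat shock and chaperone genes, which dissociation at warm temperature can also induce, were mixed between samples. In the sample lowest for the 10, 7 of the 17 were lowest and 8 highest in OB (OB_3), 3 and 7 in HC (HC_3), 6 and 11 in CX (CX_1), and 10 and 2 in BS (BS_2). Hspa1a, an inducible chaperone gene named here after its values were seen, had values of 82.5, 22.1 and 9.16 in OB, 65.0, 13.7 and 9.54 in HC, 32.7 and 21.5 in CX, and 245, 4.01 and 44.2 in BS. It was lowest in the same samples as the 10 in OB, HC and BS. Hspa1b and Dnajb1 were also lowest in OB_3 and BS_2. In HC both were lowest in HC_2, at 6.39 and 63.9, against 21.6 and 160 in HC_3. The summed value of the list, to which abundant members such as Hspa8 and Hsp90ab1 add most, was highest in the sample lowest for the 10 in OB, HC and CX, with 22763 in HC_1 against 24436 in HC_3. In BS it was 32273 in BS_1 against 21522 in BS_2. Beside the 16.5% of all genes that differed among regions, 3 of the 17 did, Cryab, Hsp90aa1 and Hsph1, all with their highest mean in BS. Cryab had 1395 ± 122 (SD, n = 3) in BS against 752 ± 163 (SD, n = 3) in OB (limma adjusted p = 0.0218). Hsph1 had values of 1038, 395 and 509 in BS and 528, 554 and 667 in HC, so that only BS_1 lay above the HC samples. Hsp90aa1 had 7527, 3848 and 4609 in BS and 4442, 3396 and 4194 in HC. By the limma F test, 3 of 27 kinases and cofactors upstream of the set differed, Map2k7, Crtc1 and Braf, again beside 16.5% of all genes. Of these 27, 1 exceeded the 95th percentile of the spread ratio. Of 14 tested partners of AP-1, 0 differed by the limma F test, beside 16.5% of all genes. Atf5, 1 of the 14, had an unadjusted p under 0.05, beside 28.7% of all genes.

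For the relatives of the feedback genes, 1 of 7 MAP kinase phosphatases tested differed among regions, beside 16.5% of all genes. This was Dusp7, with 233 ± 31.0 (SD, n = 3) in OB and 96.8 ± 40.9 (SD, n = 2) in CX (limma adjusted p = 0.0374). By the rule for 1 region, Dusp6 was higher in OB, where 4.15% of all genes were called higher. Dusp10 was higher in BS, where 9.03% of all genes were called in either direction. In the Stat3 and Socs pathway 5 of 21 differed, Lif, Cntfr, Cish, Ptpn11 and Socs5, again beside 16.5% of all genes. Lif, a cytokine that activates Stat3, had 2.79 ± 1.81 (SD, n = 3) in OB, 35.5 ± 14.5 (SD, n = 3) in HC and 35.1 ± 21.4 (SD, n = 2) in CX (limma adjusted p = 0.0155). Cish, a feedback inhibitor like Socs3, was highest in BS, at 98.6 ± 56.5 (SD, n = 3), and lowest in OB, at 10.96 ± 6.24 (SD, n = 3) (limma adjusted p = 0.0253). Of 11 cytokine and inflammatory genes known to rise in microglia on dissociation, 0 differed by the limma F test, beside 16.5% of all genes. Cxcl10, 1 of the 11, had an unadjusted p under 0.05, beside 28.7% of all genes.

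Marker levels of several other cell types, but not of all, moved with the 10 genes between replicates. In all 4 regions the sample lowest for the 10, OB_3, HC_3, CX_1 or BS_2, had the highest sum of the 10 astrocyte markers and the lowest sums of the microglial, endothelial, pericyte and neuronal markers. Between HC_1 and HC_3 the summed value of the 10 genes fell from 5981 to 383, that of endothelial markers from 3637 to 666, of pericyte markers from 2887 to 523 and of microglial markers from 5218 to 1826. Astrocyte markers stood at 285361 and 482195 in these samples. Slc1a2 added most to these sums, with 225027 and 387844. Of the 10 astrocyte markers, only Gfap was lower in HC_3 than in HC_1, at 3370 against 3672. In OB, Gfap, Aldh1l1, Aldoc and S100b were lower in OB_3 than in OB_1. Gfap, Aqp4 and Sox9 were lower in CX_1 than in CX_2. All 10 astrocyte markers were higher in BS_2 than in BS_1. The ratio of HC_1 to HC_3 was 15.6 for the 10 genes, 5.46 for endothelial, 5.52 for pericyte, 2.86 for microglial and 1.92 for neuronal markers. Of the pericyte list, Acta2, Tagln and Myh11 had 522, 135 and 593 in HC_1 and 0.734, 8.07 and 1.10 in HC_3. Pdgfrb had 424 and 199, and the rest of that list was lower in HC_3 as well. None of the 10 markers was at 0 in any sample for microglia, endothelial cells or neurons, whereas of the pericyte list Higd1b was at 0 in HC_3 and in 5 other samples, and Acta2, Tagln and Kcnj8 in 1 sample each. Of the choroid plexus list, Folr1 and Slc4a5 were at 0 in all OB samples and Sostdc1 in 1 of them.

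In BS the 10 genes summed to 5921 in BS_1 and 1028 in BS_2, a ratio of 5.76, while endothelial, pericyte and microglial sums had ratios of 1.04, 1.06 and 1.35. Choroid plexus markers had one of 4.77, with 363314 in BS_1 and 76186 in BS_2. In HC they stood at 217591 in HC_1 and 199887 in HC_3, and in CX they were lower in CX_2 than in CX_1, with a ratio of 0.409. Oligodendrocyte markers had ratios of 1.69 in OB and 2.19 in HC but of 0.940 in CX and 0.834 in BS, and ependymal markers of 0.885 in OB, 0.895 in HC, 2.62 in CX and 3.91 in BS. In OB the ratio of OB_1 to OB_3 was 2.11 for the 10 genes, 4.33 for endothelial, 2.13 for microglial and 1.96 for pericyte markers, and in CX that of CX_2 to CX_1 was 1.45, 4.10, 1.31 and 1.43. The endothelial, pericyte and microglial sums of each region ran from 396 to 1716, 768 to 1508 and 1712 to 4494 in OB. They ran from 666 to 3637, 523 to 2887 and 1826 to 5529 in HC, from 510 to 2090, 937 to 1342 and 2128 to 2794 in CX, and from 2051 to 2793, 962 to 1536 and 1611 to 3039 in BS. Neuronal sums ran from 2129 to 3648 in OB, 1294 to 2484 in HC, 2358 to 3008 in CX and 2817 to 3818 in BS, and choroid plexus sums from 2503 to 3069, 104620 to 217591, 3372 to 8247 and 76186 to 363314. The part of these cell types in the levels of the 10 genes was not tested. The marker lists also varied widely between replicates, with a median spread ratio of 2.22 for microglial, 2.49 for endothelial and 2.42 for pericyte markers.

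**Figure D5:**
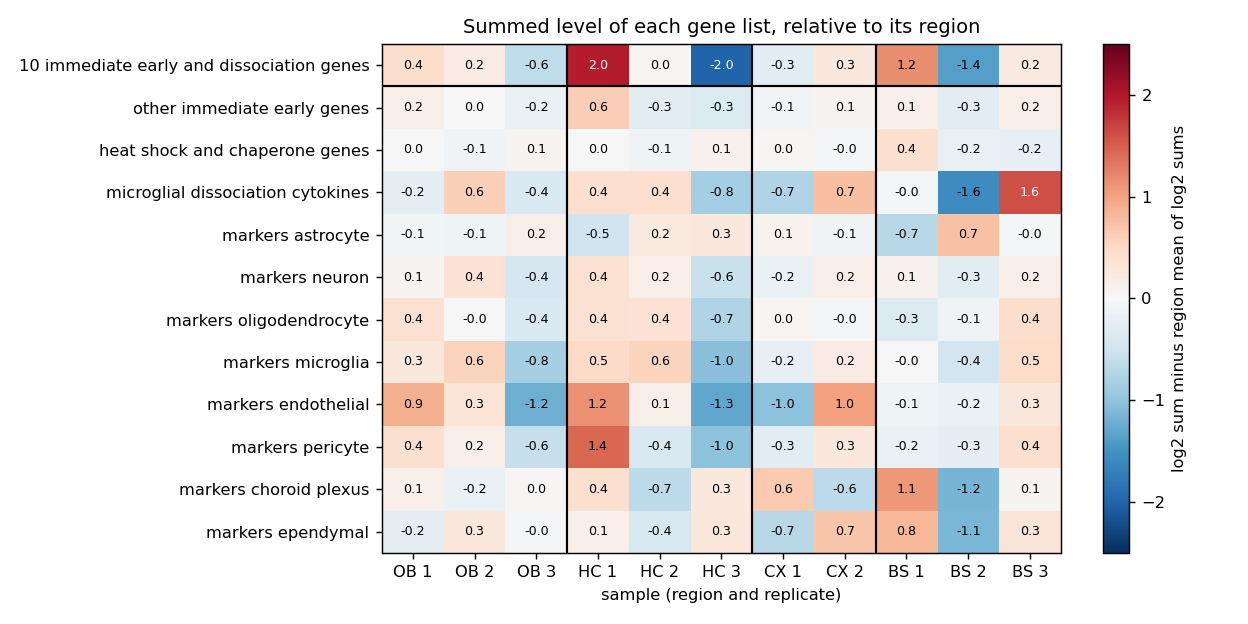
Log2 of the summed value of each gene list in each sample minus the region mean of these log2 sums, with the 10 immediate early and dissociation genes on top and vertical lines between regions (red higher, blue lower). The top row runs from red in HC 1 to blue in HC 3, as do the endothelial, pericyte and neuronal rows, and the astrocyte row runs the other way.

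Genes that were not in the set but followed it most closely were ranked by their correlation with the mean profile of the 10 over the 11 samples. The nearest 8 were Tgm2 (r = 0.95), Btg2 (0.935), Fn1 (0.934), Uaca (0.933), Klf4 (0.930), Fam65a (0.928), Zfp36 (0.923) and Nfkbiz (0.911). Of these Btg2, Klf4, Zfp36 and Nfkbiz were on the list of other immediate early genes, and those 4 were highest in HC_1. Around the region means the nearest 8 were Tgm2 (r = 0.991), Mef2c (0.979), Zfp36 (0.978), Plekhg3 (0.978), Irs2 (0.977), Btg2 (0.976), Hspg2 (0.967) and Zak (0.966). Tgm2, first by both measures, ranged from 15.0 to 109 in value.

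The outcome of the region tests changed without some samples, chiefly HC_1 and HC_3. Without HC_1, Nr4a1, Dusp1 and Socs3 passed the limma F test, with adjusted p-values of 0.00900, 0.0376 and 0.0303, as did 16.7% of all genes. Nr4a1 was then called lower in HC by the rule on unadjusted p, with a log2 difference of -2.38 (limma adjusted p = 0.389), as were 0.936% of all genes in either direction. Of the 60 contrasts, 5 then passed, against 7.11% over all genes. Without HC_3, Socs3 passed the limma F test (adjusted p = 0.0371), as did 15.8% of all genes, and Ier2 and Socs3 were called lower in CX, by the rule on unadjusted p, at -2.12 and -3.79 (limma adjusted p = 0.263 and 0.144), against 3.36% of all genes called in CX. Without BS_2, 1 contrast passed, that of Socs3 between CX and BS (limma adjusted p = 0.0472), against 9.69% over all genes. HC_1 and HC_3 were the highest and the lowest samples for the set, so leaving out either one moves the HC mean in a set direction. With both left out, an alternative added after seeing the data, Socs3 passed the limma F test (adjusted p = 0.0384) and was called lower in CX, on the 0 and 2 reads of the CX samples, where 12.8% and 3.21% of all genes passed these rules.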

How the data were processed

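RNA from FAC-sorted eGFP+ astrocytes was sequenced in 11 samples, which were grouped by the region in their labels. Per the labels and the study's methods, the authors prepared libraries with the Trio RNA-Seq System from total RNA, mapped reads with STAR 2.5.0a to mm10, used UCSC transcripts for the counts, and scaled these with DESeq2 1.20.0. The deposited unit is a normalized signal, the read count divided by 1 size factor per sample. Values above 0 were checked against multiples of the value of 1 read, and 100% came out whole within 0.001 reads, so that whole reads were recovered. Of 24421 entries, 4 with repeated date-like names were left out, holding at most 1918 reads in a sample.

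Values were tested as log2(value + 1) with limma 3.58.1 (two-sided, mean-variance trend, R 4.3.3), on the 13872 genes that passed filterByExpr of edgeR applied to these reads. Adjusted p-values follow Benjamini and Hochberg over all genes tested. The count test on the recovered reads, edgeR 4.0.16, called 2072 genes among regions against 2282 by limma, and DESeq2 1.42.0 called 3060. Regions were compared with the others pooled, jointly by an F test, and in pairs. All 10 genes are named, with up to 6 genes of smallest F test p from each related list, and the 8 genes of closest profile. Members and lists were chosen with earlier results of these data known. The steps were tested on simulated data. The simulated spread followed the trend over genes, narrower than that of most of the 10, so changes in genes of such spread were not covered.

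Alternatives were TMM scaling, pseudocounts of 0.25 and 5, no filter, adjusted p-values as the call rule, a replicate block, rlog values and leaving out each sample. Gene spans, strand and promoter sequences came from RefSeq tables for GRCm38.p6, and exon lengths from GENCODE transcripts matched to RefSeq. Reads per sample set the floor of 3 reads, at values between 1.10 and 6.31.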

Additional observations from a re-analysis of the deposited data

How the results depend on the processing

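The counts of the 10 genes called stayed at 0 for OB and BS under every alternative run, including edgeR, TMM scaling, both other pseudocounts, no filter and the adjusted call rule. Leaving out each sample gave 0 to 1 for HC, 0 to 2 for CX, 0 to 3 for the F test and 0 to 5 for the 60 contrasts between regions. The samples behind these were HC_1, without which 5 contrasts passed (Fos in OB against HC, Nr4a1 in OB against HC and in HC against BS, Dusp1 in HC against BS, Socs3 in CX against BS), HC_3, without which 2 passed, and BS_2, without which 1 passed, the last 3 all of Socs3. DESeq2 gave 1 call in CX. With HC reduced to 1 library, chosen after seeing the data, there were 1 call in CX, 1 gene in the F test, 2 contrasts and a median replicate SD of 0.897 in place of 1.48. That lone HC sample is assumed to vary like the other groups. The median SD, with 1 sample left out at a time, ran from 1.11 to 1.6, and was 0.826 on rlog values, against 0.203 over all genes on that scale. Of the single-gene results, F tests that carry no direction, 195 stayed on their side of the threshold and 5 newly passed it. For pairing, deviations of samples with the same replicate number correlated between -0.160 and 0.25, with 3 of 15 pairs over 0.1. Other pairs correlated between -0.224 and 0.183, and 7 of 11 samples correlated best with their own number. These values do not settle whether the numbers pair the samples. With the replicate block, 0 of the 10 genes were called in each region, 0 passed the F test and 0 of 60 contrasts passed, and 2325 genes differed among regions against 2282. At an unadjusted p under 0.05 the block gave 11 of the 60 contrasts, against 3 without it, where 19.6% of all tests passed. By the F test it gave 2 of the 10 genes, against 1 without it, where 29.2% of all genes passed. edgeR with the block, added after seeing the data, also passed 0. Depth limited Socs3 and Ier2, with 0 to 5 reads in CX, most.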
